A study of Arabidopsis thaliana with 44 samples.

Results

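The transcripts of 10 class III peroxidases, PRX22 (AT2G38380), PRX23 (AT2G38390), PRX33 (AT3G49110), PRX34 (AT3G49120), PRX37 (AT4G08770), PRX52 (AT5G05340), PRX62 (AT5G39580), PRX64 (AT5G42180), PRX69 (AT5G64100) and PRX71 (AT5G64120), were followed in dark-grown Arabidopsis seedlings grown on the space station or in matched hardware on the ground. They were picked by locus identifier and make up 10 of the 34133 loci in the table, and 9 of them were among the 19186 genes tested. PRX52 lay below the filter on low values. The family list used for comparison holds 73 class III peroxidases, of which 53 were tested.

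Whole seedlings of the Col-0 background, 14 days old, were preserved in RNAlater at the end of the flight or of the ground run. Each 60 mm plate held 0.5% sucrose and carried 70 to 80 seeds, so a library averages over many seedlings. Flight libraries came from bzip28-2, bzip60-2, bzip28-2 bzip60-1, ire1a-4 ire1b-2 and WT seedlings, and ground libraries from the same 5 genotypes, with 4 libraries in each of the 10 groups. The genotypes are called bzip28, bzip60, bzip28bzip60, ire1aire1b and WT. The mutants are disrupted in sensors of the unfolded protein response, by which IRE1 splices the bZIP60 transcript and membrane-bound bZIP28 is cut free to act in the nucleus when proteins misfold in the endoplasmic reticulum. The comparisons address how far the response to spaceflight depends on these sensors.

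Class III peroxidases are heme enzymes that plants secrete through the endoplasmic reticulum into the cell wall and the vacuole. With hydrogen peroxide they oxidise phenolic groups, which cross-links lignin monomers and wall proteins such as extensins and stiffens the wall, and in another cycle they can make reactive oxygen species. In seedlings individual members are known for the oxidative burst in defence, for the lignin of the endodermal barrier, for root hair growth and for the limits of cell expansion.

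Levels are given in FPKM, which divides the fragments of a gene by its transcript length and by all mapped fragments of the library. A ribosomal RNA locus, AT2G01021, made up 22.5 ± 12.8% of all deposited FPKM in flight libraries and 72.4 ± 14.1% in ground libraries (SD, n = 20 each). The FPKM were therefore rescaled per library by the median ratio over 14104 genes, and every level below is rescaled FPKM. Log2 changes are differences in log2(rescaled FPKM + 1), a scale that understates the change of low genes. The median tested gene lay 0.08 to 0.10 higher in flight on this scale and 0.33 to 0.97 higher as deposited, so changes are also given as deposited. A gene was called at an adjusted p below 0.05 (limma, Benjamini-Hochberg over the 19186 genes of a comparison). By the lane number in the sample titles, lanes 1 and 3 held libraries of 1 condition only. In lane 2 bzip60 alone had both conditions, with 1 flight and 2 ground libraries, which is too few for a value. Lane 4 had both for the libraries labelled bzip28 (1 flight and 2 ground), ire1aire1b (2 and 2) and WT (1 and 1), and values within lane 4 rest on these 9 libraries and hold nothing on bzip60 or bzip28bzip60. With lane as a term in the fit of all libraries, no flight against ground call of a member changed. These p-values rest on the spread between libraries within groups, pooled over the 10 groups, and neither run is named as having been repeated. In whole seedlings, fewer cells of a type and less RNA per cell cannot be told apart.

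As a check of the labels, IRE1A averaged 1.02 ± 0.0524 in ire1aire1b flight libraries, against 27.2 ± 1.84 in WT flight libraries, and IRE1B at 3.99 ± 0.494 against 7.06 ± 0.747 (SD, n = 4 each). BZIP60 was at 12.3 ± 1.27 in bzip60 and 11.3 ± 1.91 in bzip28bzip60 ground libraries, against 69.2 ± 3.07 in WT ground libraries. BZIP28 was at 3.11 ± 0.484 in bzip28bzip60 ground libraries, 69.3 ± 14.8 in those labelled bzip28 and 29.8 ± 1.86 in WT. The transcript was thus higher, not lower, in the libraries labelled bzip28, also in flight, with 85.8 ± 12.9 against 17.2 ± 1.002 in WT. FPKM count reads over the whole gene and do not show whether the transcript is intact, so every direction below for bzip28 holds for the libraries labelled so.

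The 6 stretches of sequence shown here, from RefSeq TAIR10.1, show how alike the members are in the enzyme and how they differ in front of the gene. The first 4 are 45 coding bases around the catalytic histidine, from pairs of neighbouring genes, with the 9 bases that code for the His-Asp-Cys block in capitals. This block was found in all 10 members and in 71 of the 73 family members.
PRX33 active site: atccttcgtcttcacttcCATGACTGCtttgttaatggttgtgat
PRX34 active site: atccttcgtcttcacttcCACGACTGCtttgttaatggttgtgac
PRX22 active site: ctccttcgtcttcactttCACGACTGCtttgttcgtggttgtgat
PRX23 active site: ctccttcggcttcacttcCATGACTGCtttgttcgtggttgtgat
In all 4 genes an intron lies inside the stretch, which spans chr3:18200911-18201515 for PRX33, chr3:18208014-18208811 for PRX34, chr2:16076635-16076820 for PRX22 and chr2:16079918-16080105 for PRX23, all on the plus strand. PRX33 and PRX34 differed at 2 of the 45 bases and PRX22 and PRX23 at 3, while PRX52 and PRX64, from the more distant members, differed at 18. The 250 bases before the annotated start are shown for PRX33 and PRX34, because these closely related neighbours moved in opposite directions in flight on the rescaled values, with each ACGT core in capitals.
PRX33 promoter: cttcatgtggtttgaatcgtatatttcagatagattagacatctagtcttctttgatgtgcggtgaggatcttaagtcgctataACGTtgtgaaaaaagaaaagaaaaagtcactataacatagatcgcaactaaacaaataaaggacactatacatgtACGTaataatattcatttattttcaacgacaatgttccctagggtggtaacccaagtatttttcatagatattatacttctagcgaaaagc
PRX34 promoter: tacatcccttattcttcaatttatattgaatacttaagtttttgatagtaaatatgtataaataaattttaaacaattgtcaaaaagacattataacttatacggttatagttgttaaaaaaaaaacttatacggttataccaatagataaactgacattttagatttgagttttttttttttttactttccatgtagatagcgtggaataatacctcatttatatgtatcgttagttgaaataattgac
They lie at chr3:18200337-18200586 and chr3:18207401-18207650, both on the plus strand. The ACGT core, which reads the same on both strands and lies within the sites of many bZIP factors, was found 166 and 91 bases before the start of PRX33 and not in the window of PRX34. It occurs in 44.1% of 27443 promoters of this length. The W-box letters TTGACC or TTGACT, searched on both strands and known as sites of WRKY factors, were in neither window and occur in 28.4% of promoters. Among the other 8 members, the core was found once each for PRX23, PRX52, PRX62, PRX69 and PRX71, and the W-box letters once for PRX62 and 3 times for PRX71. None of these matches overlapped each other. Such a match is a description of the letters and not a binding site.

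In flight, 5 members rose and 4 fell in the mean of the 5 genotypes on the rescaled values, of which PRX71 went the other way as deposited. PRX33, PRX37, PRX64, PRX23 and PRX22 were higher in flight, and PRX69, PRX34, PRX62 and PRX71 lower. By limma with Benjamini-Hochberg adjustment, 46.8% of all 19186 tested genes were called higher and 33.3% lower in that mean, so being called is the common outcome and the members' directions and sizes are the description. PRX33 passed the filter on low values only through its flight libraries, so it had to differ, and the counts are given as descriptions. As deposited 6 members were called higher and 3 lower in the mean, where 84.6% and 5.57% of all tested genes were. In the libraries labelled bzip28, 5 members were called higher and 3 lower, against 35.1% and 24.2% of all tested genes, and as deposited 6 and 0, against 82.2% and 1.88%. In bzip60 they were 5 and 4, against 33.2% and 22.8%, and as deposited 5 and 3, against 40.6% and 7.97%. In bzip28bzip60 5 were higher and 3 lower, against 32.6% and 22.5%, and as deposited 5 and 1, against 71.2% and 2.64%. In ire1aire1b 4 were higher and 3 lower, against 34.2% and 23.9%, and as deposited 6 and 0, against 80.6% and 2.17%. In WT 3 were higher and 3 lower, against 35.5% and 24.9%, and as deposited 6 and 1, against 77.8% and 3.09%. The split between higher and lower calls thus depended on the scale, for the members as for all genes. PRX33, PRX37 and PRX64 were called higher and PRX34, PRX62 and PRX69 lower in all 5 genotypes on the rescaled values. The share of all tested genes called in the same direction in all 5 was not counted, so this is a description. Nor was the share whose flight and ground libraries do not overlap. Each lack of overlap below is thus a description, and it holds for the rescaled values. As deposited, PRX33, PRX37 and PRX64 were also called higher in all 5, while the signs of PRX34, PRX62 and PRX69 turned positive in the libraries labelled bzip28 and that of PRX71 in 4 genotypes and the mean.

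**Figure D1:**
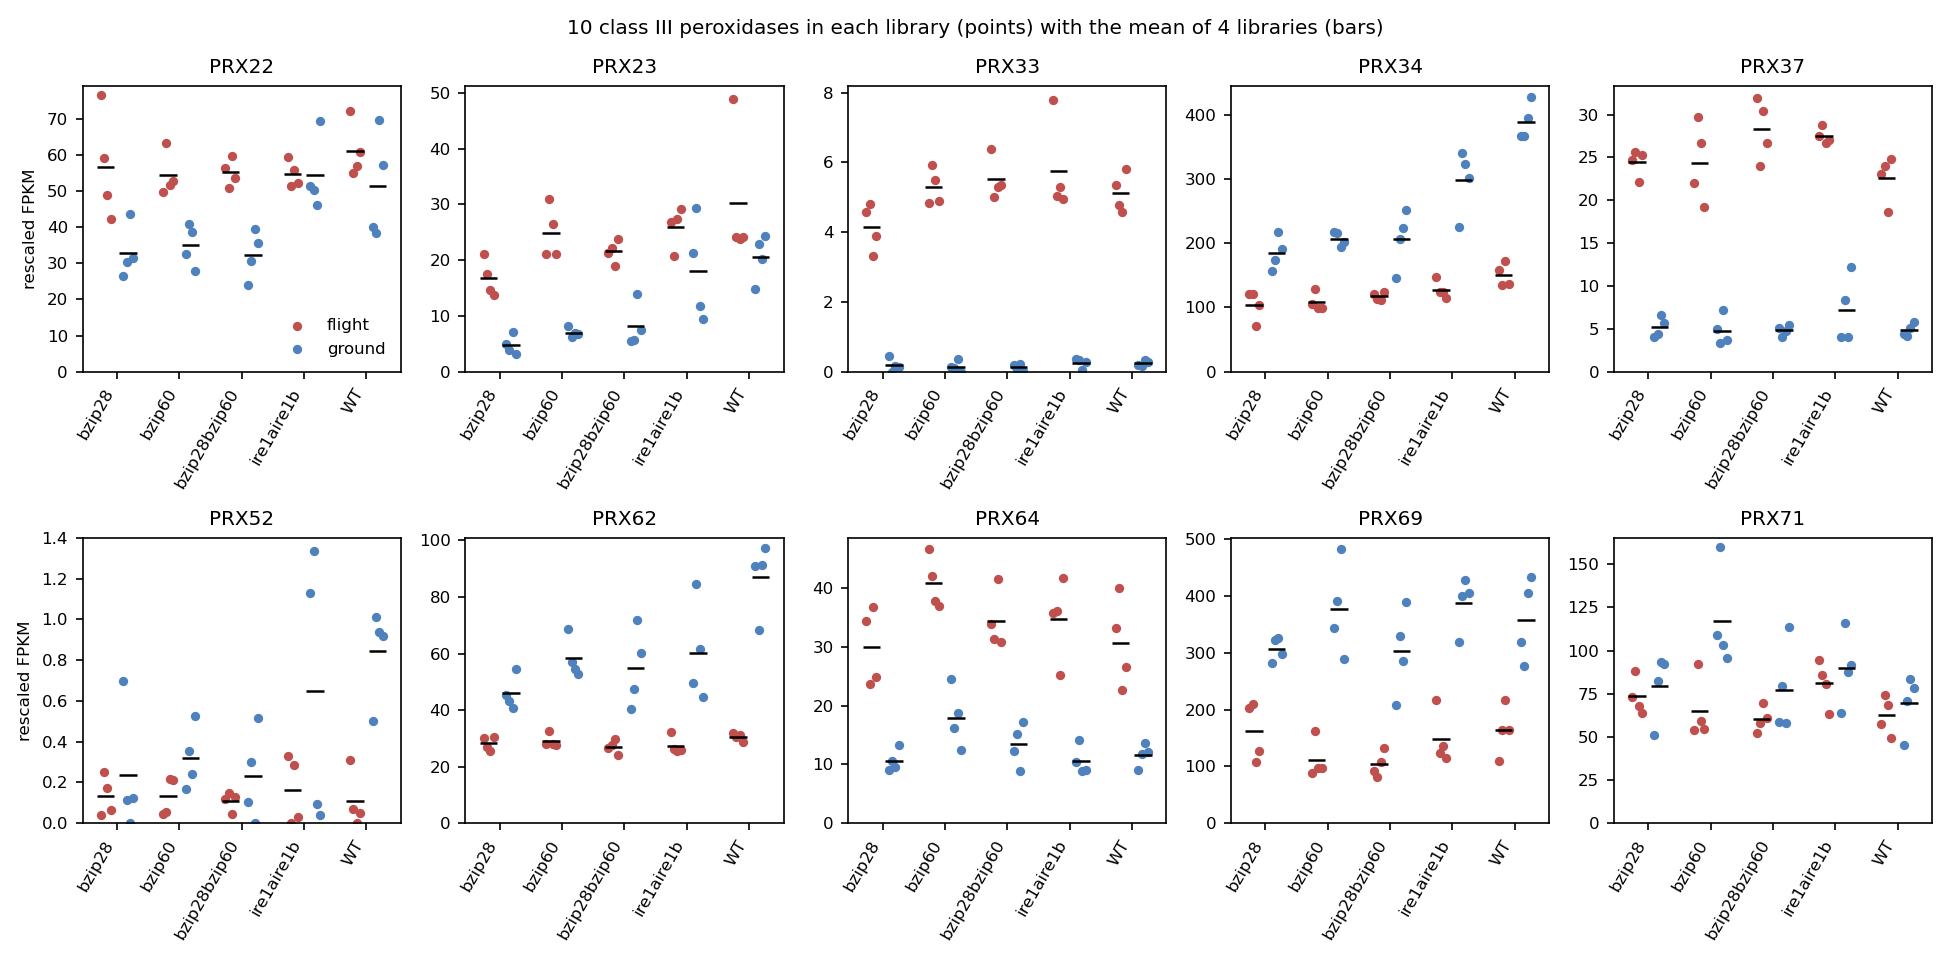
Rescaled FPKM (vertical axis, from 0, one scale per gene) of the 10 peroxidases in 5 genotypes (horizontal axis), with flight libraries in red to the left of ground libraries in blue. Points are libraries and bars the means of 4. PRX33, PRX37 and PRX64 sit above their ground libraries in every genotype, and PRX34, PRX62 and PRX69 below, on the rescaled values, while as deposited the last 3 were not lower in the libraries labelled bzip28.

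A measure that does not depend on the scale of a library is the share of the summed FPKM of all 73 family members. It does depend on the other members. On the rescaled values that sum had a higher mean in flight in every genotype. It averaged 3596 ± 394 in flight and 2896 ± 140 on the ground in the libraries labelled bzip28, and 3836 ± 186 and 3616 ± 115 in WT (SD, n = 4 each). The 10 genes together made up 13.5 ± 1.08% of that sum in flight libraries and 24.1 ± 3.03% in ground libraries (SD, n = 20 each). The libraries of the 2 conditions did not overlap, with 11.9 to 15.4% in flight and 17.3 to 31.2% on the ground. PRX69 alone took 3.67 ± 0.985% in flight and 10.2 ± 1.45% on the ground, and PRX34 took 3.27 ± 0.473% and 7.49 ± 1.97%. For both genes every flight library was below every ground library.

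PRX33 and PRX34 are neighbours on chromosome 3 (chr3:18200587-18203265, plus strand, 4 exons, and chr3:18207651-18210333, plus strand, 4 exons) that lie 4385 bases apart. Their coding sequences are 90.7% identical, and both are known for the oxidative burst in the cell wall that follows contact with microbes. PRX33 was nearly absent on the ground and present in flight, whereas the abundant PRX34 was lower in flight on the rescaled values. Over all libraries PRX33 had 3.32 to 7.803 rescaled FPKM (median 5.02) in flight and 0 to 0.462 rescaled FPKM (median 0.176) on the ground (n = 20 each). No flight library came near the ground range. PRX33 in the libraries labelled bzip28 had 4.57, 4.81, 3.32 and 3.901 in flight, against 0.462, 0, 0.169 and 0.1201 on the ground. In bzip60 it had 4.85, 5.94, 5.49 and 4.89 in flight, against 0.134, 0.0975, 0.354 and 0 on the ground. Only these 2 genotypes had a ground library listed at 0. In bzip28bzip60 the values were 6.38, 5.01, 5.29 and 5.37 in flight, against 0.204, 0.0522, 0.217 and 0.0320 on the ground. In ire1aire1b they were 7.803, 5.04, 5.28 and 4.94 in flight, against 0.3602, 0.336, 0.0498 and 0.275 on the ground. In WT they were 5.37, 4.77, 4.58 and 5.81 in flight, against 0.183, 0.153, 0.331 and 0.285 on the ground. The 5 flight groups overlapped their neighbours in order of level, from ire1aire1b down to the libraries labelled bzip28, and so did the 5 ground groups. The log2 difference was 2.37 ± 0.058 in the mean of the genotypes (SE), 2.31 ± 0.13 in WT and 2.44 ± 0.19 within lane 4. It depends on the pseudocount, and, since PRX33 entered the test only through flight, no fold is given.

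PRX34 is one of the more abundant members, with 71.3 to 173 rescaled FPKM (median 121) in flight and 146 to 427 rescaled FPKM (median 221) on the ground (n = 20 each). In the libraries labelled bzip28 it had 120.2, 121, 71.3 and 104 in flight, against 157, 174, 218 and 190.4 on the ground. In bzip60 PRX34 had 105, 128, 99.2 and 99.1 in flight, against 218, 216, 194 and 201 on the ground. Within both genotypes the conditions did not overlap. In bzip28bzip60 PRX34 had 120.4, 113, 111 and 124 in flight, against 146, 206, 224 and 251 on the ground. In ire1aire1b the values were 147, 124, 124 and 115 in flight, against 225, 341, 324 and 302 on the ground. In WT, PRX34 had 158, 135, 173 and 137 in flight, against 367, 368, 395 and 427 on the ground. The WT ground libraries were the highest of all and stood clear of the ire1aire1b ground libraries. The latter lay above all ground libraries of bzip60 and of those labelled bzip28. They overlapped those of bzip28bzip60, whose highest library was at 251 beside the lowest of ire1aire1b at 225. The log2 change of PRX34 was -1.37 ± 0.15 in WT (limma, Benjamini-Hochberg adjusted p = 1.01e-09) and -1.03 ± 0.065 in the mean, lower in flight in all 5 genotypes. Within lane 4 it was -0.95 ± 0.18. As deposited it was -0.45 in WT (limma adjusted p = 0.108), -0.24 in the mean (limma adjusted p = 0.047) and 0.20 in the libraries labelled bzip28, and -0.068 in bzip28bzip60 and -0.23 in ire1aire1b (limma adjusted p = 0.819 and 0.401), and the call was kept in bzip60 at -0.67 alone among the genotypes. Relative to the family sum PRX34 was lower in every flight library, as given above, in a share that also depends on the other members.

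Reads from stretches that both genes share could be counted for either. Of the 1516 windows of 50 bases in the PRX33 transcript, 99 (6.53%) are identical in PRX34. In ground libraries with PRX34 at 145.6 to 427 rescaled FPKM, PRX33 was at no more than 0.462, which bounds what such sharing added to PRX33 there. PRX32, 83.6% identical to PRX33 and 84.4% to PRX34, shares no such window with either. PRX32 averaged 308 ± 42.9 in flight, against 242 ± 14.4 on the ground, in WT (SD, n = 4 each), and its mean flight change was 0.30 ± 0.068.

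**Figure D2:**
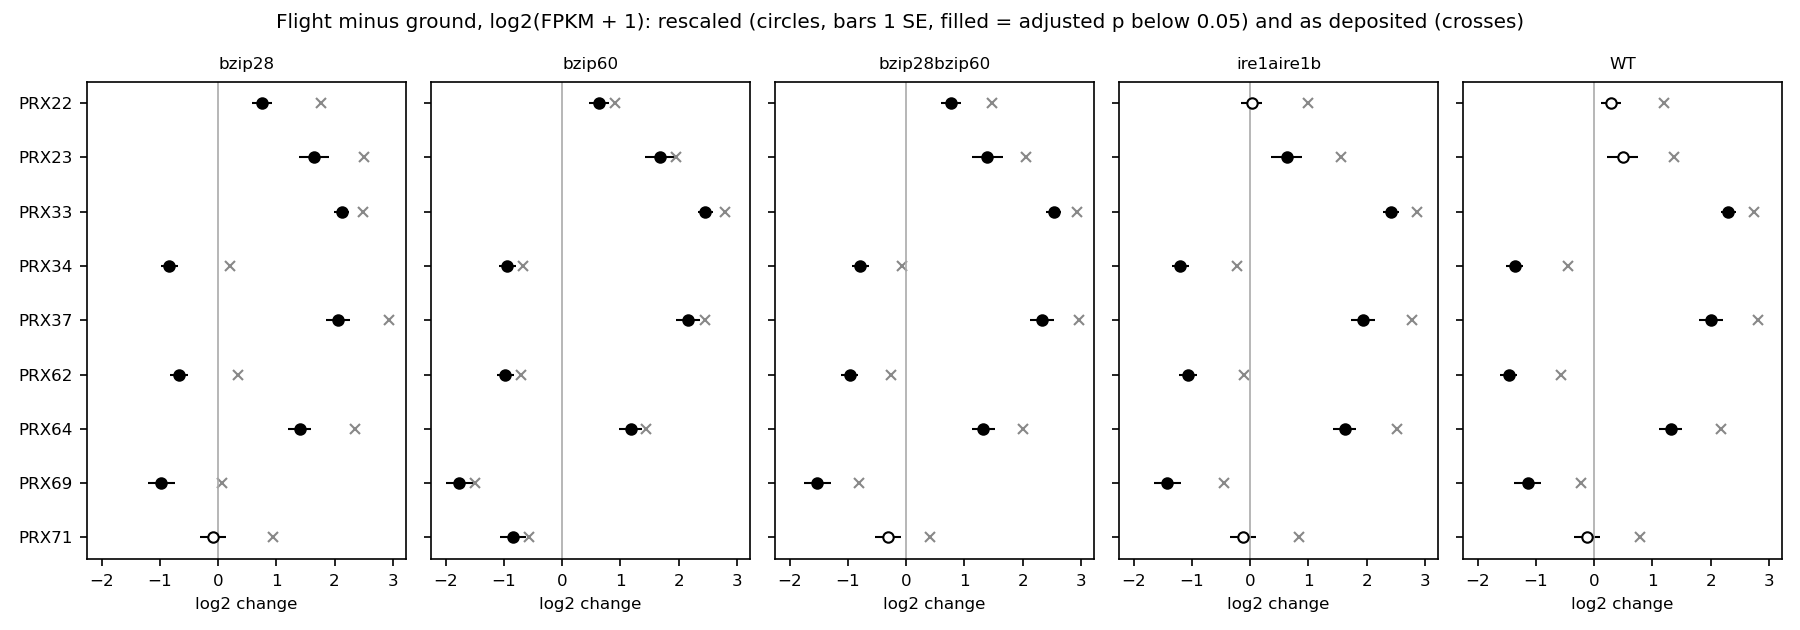
Flight minus ground on the log2(FPKM + 1) scale (horizontal axis) for the 9 tested peroxidases, one panel per genotype. Circles are rescaled values with bars of 1 SE, filled where the limma adjusted p is below 0.05, and crosses are values as deposited. Circles of PRX34, PRX62 and PRX69 lie left of 0 in all panels, while their crosses lie right of 0 in the libraries labelled bzip28, and the crosses of PRX71 lie right of 0 in every panel but bzip60.

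PRX64 (chr5:16852628-16854224, plus strand, 4 exons) polymerises lignin in the Casparian strip, the wall barrier of the root endodermis, where CASP proteins hold it in place. It rose in flight in all 5 genotypes on both scales. PRX64 in the libraries labelled bzip28 had 34.5, 23.8, 36.9 and 24.8 in flight, against 9.14, 10.6, 9.58 and 13.3 on the ground. In bzip60, PRX64 had 46.8, 42.1, 37.9 and 37.02 in flight, against 24.6, 16.3, 18.7 and 12.4 on the ground. The bzip60 groups were the highest of their condition by mean, and no genotype showed overlap between conditions. In bzip28bzip60, PRX64 had 33.9, 31.3, 41.5 and 30.8 in flight, against 12.2, 15.2, 8.88 and 17.3 on the ground. In ire1aire1b, PRX64 had 35.8, 36.1, 25.3 and 41.7 in flight, against 10.5, 14.2, 8.81 and 9.02 on the ground. In WT, PRX64 had 33.2, 40.1, 22.7 and 26.6 in flight, against 9.03, 11.7, 13.6 and 12.05 on the ground. Neighbouring groups overlapped all along the order of levels, also bzip60 ground, the highest ground group, with the lowest flight group. The log2 change was 1.31 ± 0.20 in WT (limma adjusted p = 8.33e-07), 1.62 ± 0.20 in ire1aire1b and 1.37 ± 0.089 in the mean, and 1.46 ± 0.16 within lane 4. As deposited the mean was 2.10.

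Endodermal markers are given beside PRX64. Of 8 markers 7 were tested, and 4 were called higher in flight in the mean and 0 lower, where 46.8% and 33.3% of all tested genes were. Among them, CASP4 rose by 1.41 ± 0.11 on the log2 scale, CASP2 by 0.87 ± 0.094 and CASP1 by 0.72 ± 0.10, while CASP5, MYB36 and GSO1 did not pass the test (-0.086 ± 0.14, -0.12 ± 0.068 and 0.012 ± 0.047). The CASP genes code for the membrane scaffold of the strip and MYB36 for the factor that turns the strip programme on. The summed level of the 8 markers ranged from 122 to 257 in flight libraries and from 68.6 to 164 in ground libraries, and no marker was at 0 throughout. The part of this shift in the change of PRX64 was not tested.

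PRX52 (chr5:1578869-1580875, minus strand, 4 exons) is known for the syringyl units of lignin in the stem. It was low in all 40 libraries and was not tested. The libraries labelled bzip28 had 0.0375, 0.253, 0.171 and 0.0647 in flight and 0.697, 0.116, 0 and 0.123 on the ground. For bzip60 the values were 0.04597, 0.05296, 0.218 and 0.211 in flight and 0.167, 0.352, 0.239 and 0.524 on the ground. Those of bzip28bzip60 were 0.118, 0.149, 0.0448 and 0.129 in flight and 0.102, 0.298, 0 and 0.516 on the ground. In these 3 genotypes flight and ground overlapped. PRX52 in ire1aire1b had 0.332, 0, 0.287 and 0.0289 in flight and 1.13, 1.34, 0.0934 and 0.0382 on the ground. In WT it had 0.309, 0.0678, 0 and 0.0491 in flight, against 0.502, 1.01, 0.9397 and 0.916 on the ground. WT was the 1 genotype in which all ground libraries lay above all flight libraries, and in ire1aire1b the ground libraries split into 2 above 1 and 2 below 0.1. A value of 0 is listed for 4 libraries of 4 groups, and depth is unknown, so no fold is given.

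PRX37 (chr4:5598037-5600398, minus strand, 4 exons) is a wall peroxidase of vascular tissue whose overexpression dwarfs plants, and PRX71 (chr5:25659257-25661007, minus strand, 3 exons) strengthens walls and holds back cell expansion after wall damage. PRX37 rose several-fold in flight in each genotype, and PRX71 showed no change that held on both scales. PRX37 in the libraries labelled bzip28 had 24.7, 25.7, 22.1 and 25.2 in flight, against 4.06, 4.34, 6.58 and 5.71 on the ground. In bzip60, PRX37 had 22.04, 29.7, 26.6 and 19.2 in flight, against 4.94, 3.29, 7.19 and 3.67 on the ground. The lowest flight library of bzip60 was still more than 2 times its highest ground library. In bzip28bzip60, PRX37 had 31.9, 23.9, 30.5 and 26.7 in flight, against 5.15, 4.01, 4.75 and 5.38 on the ground. In ire1aire1b, PRX37 had 27.5, 28.8, 26.7 and 26.99 in flight, against 4.04, 8.32, 4.03 and 12.2 on the ground. In WT, PRX37 had 23.02, 23.9, 18.7 and 24.9 in flight, against 4.37, 4.201, 5.04 and 5.81 on the ground. All 20 flight libraries were above all 20 ground libraries, and among the ground groups the ire1aire1b libraries had the widest range. The log2 change was 2.01 ± 0.21 in WT (limma adjusted p = 4.16e-10), between 1.93 and 2.33 over the 5 genotypes, 2.10 ± 0.093 in the mean and 2.34 ± 0.09 within lane 4. As deposited the mean was 2.79.

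PRX38, next to PRX37 on the opposite strand and 93.8% identical to it in coding sequence, shares 7.78% of its partner's windows of 50 bases, so the 2 genes are uncertain to that extent. PRX38 ranged over 1.35 to 2.08 rescaled FPKM in flight, against 0.221 to 0.794 on the ground, in WT, and its mean flight change was 0.78 ± 0.10. It too passed the filter only through flight. PRX38 was thus the low partner of the pair in both conditions.

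PRX71 ranged from 49.2 to 94.6 rescaled FPKM (median 66.04) in flight and from 45.04 to 159.8 rescaled FPKM (median 85.6) on the ground (n = 20 each), and the ranges overlapped. Its means were 73.4 ± 10.7 in flight and 79.6 ± 19.7 on the ground in the libraries labelled bzip28, and 65.1 ± 18.3 and 117 ± 29.1 in bzip60. They were 60.2 ± 7.06 in flight and 77.3 ± 26.2 on the ground in bzip28bzip60, 81.02 ± 13.4 and 89.8 ± 21.4 in ire1aire1b, and 62.4 ± 11.2 and 69.4 ± 17.1 in WT (SD, n = 4 each). Conditions separated in bzip60 only, where the log2 change was -0.84 ± 0.22 (limma adjusted p = 0.00168) and, as deposited, -0.57 (limma adjusted p = 0.152). The mean over genotypes was -0.30 ± 0.099 (limma adjusted p = 0.00678), but 0.48 as deposited, in the opposite direction (limma adjusted p = 0.003). The other genotypes, from -0.31 to -0.087, did not pass the test on the rescaled values, and as deposited lay between 0.41 and 0.94. Within lane 4, which holds no bzip60 library, the change was -0.02 ± 0.21.

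PRX62 (chr5:15847065-15849141, minus strand, 3 exons) and PRX69 (chr5:25650567-25652247, minus strand, 3 exons) are known to act together in root hair growth at low temperature. Both were lower in flight in every genotype on the rescaled values. PRX62 in the libraries labelled bzip28 had 30.3, 27.1, 25.7 and 30.4 in flight, against 45.4, 43.1, 40.6 and 54.4 on the ground. In bzip60, PRX62 had 28.1, 32.5, 27.9 and 27.7 in flight, against 68.8, 57.2, 54.6 and 52.7 on the ground. The flight values of both genotypes fell into one narrow band. In bzip28bzip60, PRX62 had 26.6, 27.7, 29.7 and 23.9 in flight, against 40.5, 47.4, 71.7 and 60.2 on the ground. In ire1aire1b, PRX62 had 32.4, 26.3, 25.4 and 25.8 in flight, against 49.6, 84.7, 61.7 and 44.6 on the ground. In WT, PRX62 had 31.8, 30.3, 31.1 and 28.8 in flight, against 90.99, 68.3, 91.2 and 97.4 on the ground. All 20 flight libraries, at 23.9 to 32.5 rescaled FPKM (median 28.01), lay below all 20 ground libraries, at 40.5 to 97.4 rescaled FPKM (median 55.9), and WT had the highest ground mean. The log2 change of PRX62 was -1.47 ± 0.15 in WT (limma adjusted p = 2.83e-10) and -1.03 ± 0.066 in the mean, and -0.97 ± 0.17 within lane 4. As deposited it was -0.56 in WT (limma adjusted p = 0.0365) and -0.26 in the mean (limma adjusted p = 0.0275), but 0.35 in the libraries labelled bzip28, -0.26 in bzip28bzip60 and -0.11 in ire1aire1b, none of these 3 called (limma adjusted p = 0.187, 0.337 and 0.676).

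PRX69 had the highest mean of the members over the 20 ground libraries, although PRX34 was above it in WT ground libraries (389 ± 28.4 for PRX34 and 358 ± 73.1 for PRX69). PRX69 in the libraries labelled bzip28 had 203, 209, 108 and 128 in flight, against 282, 322, 326 and 298 on the ground. In bzip60, PRX69 had 88.6, 162, 96.8 and 97.2 in flight, against 343, 392, 483 and 289 on the ground. The second bzip60 flight library stood above its 3 partners but below every ground library. In bzip28bzip60, PRX69 had 92.3, 81.4, 108 and 132 in flight, against 208, 330.2, 286 and 389 on the ground. In ire1aire1b, PRX69 had 217, 123, 136 and 115 in flight, against 319, 399, 427 and 405 on the ground. In WT, PRX69 had 109.7, 163, 216 and 164 in flight, against 319, 276, 405 and 433 on the ground. Within each genotype the conditions did not overlap, and within each condition neighbouring groups did. The log2 change of PRX69 was -1.15 ± 0.23 in WT (limma adjusted p = 7.29e-05), -1.77 ± 0.23 in bzip60 and -1.37 ± 0.10 in the mean, and -0.98 ± 0.18 within lane 4. As deposited it was -0.23 in WT (limma adjusted p = 0.488), -1.50 in bzip60 (limma adjusted p = 9.59e-05), -0.58 in the mean, 0.072 in the libraries labelled bzip28 and -0.45 in ire1aire1b (limma adjusted p = 0.163).

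Markers of root hair cells are given beside this pair. Of 8 markers 4 were tested, and 3 were called higher in flight in the mean and 0 lower, where 46.8% and 33.3% of all tested genes were. By genotype, 2 were called higher in WT and 0 in each of the mutants, with 0 lower in any genotype. PRP3, a wall protein of root hairs, rose by 0.64 ± 0.16, LRX1, a leucine-rich extensin of root hairs, by 0.41 ± 0.12 and the expansin EXPA18 by 0.29 ± 0.13. LRX1 and EXPA18 passed the filter on low values only through their flight libraries and had to differ. The summed level of the 8 markers was 7.11 to 28.9 in flight libraries and 3.54 to 20.2 in ground libraries. No marker was at 0 throughout, and their part in the changes of PRX62 and PRX69 was not tested.

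PRX69 and PRX71 flank PRX70 on chromosome 5 and all 3 lie on the minus strand. PRX70 rose in flight where PRX69 fell, with 30.9 ± 6.51 in flight and 4.28 ± 0.489 on the ground in the libraries labelled bzip28, and 45.01 ± 6.09 and 3.54 ± 0.897 in bzip60. In bzip28bzip60 PRX70 averaged 33.2 ± 8.32 in flight, against 3.44 ± 0.453 on the ground, in ire1aire1b at 54.6 ± 12.4 and 3.91 ± 1.24, and in WT at 37.5 ± 9.25 and 4.52 ± 1.96 (SD, n = 4 each). Its mean log2 change of 3.04 ± 0.094 was the largest rise among the tested family members. PRX70 is 69.3% identical to PRX69 and 64.4% to PRX71 in coding sequence, and no window of 50 bases is shared among the 3, so these levels are not mixed by identical stretches of that length.

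**Figure D3:**
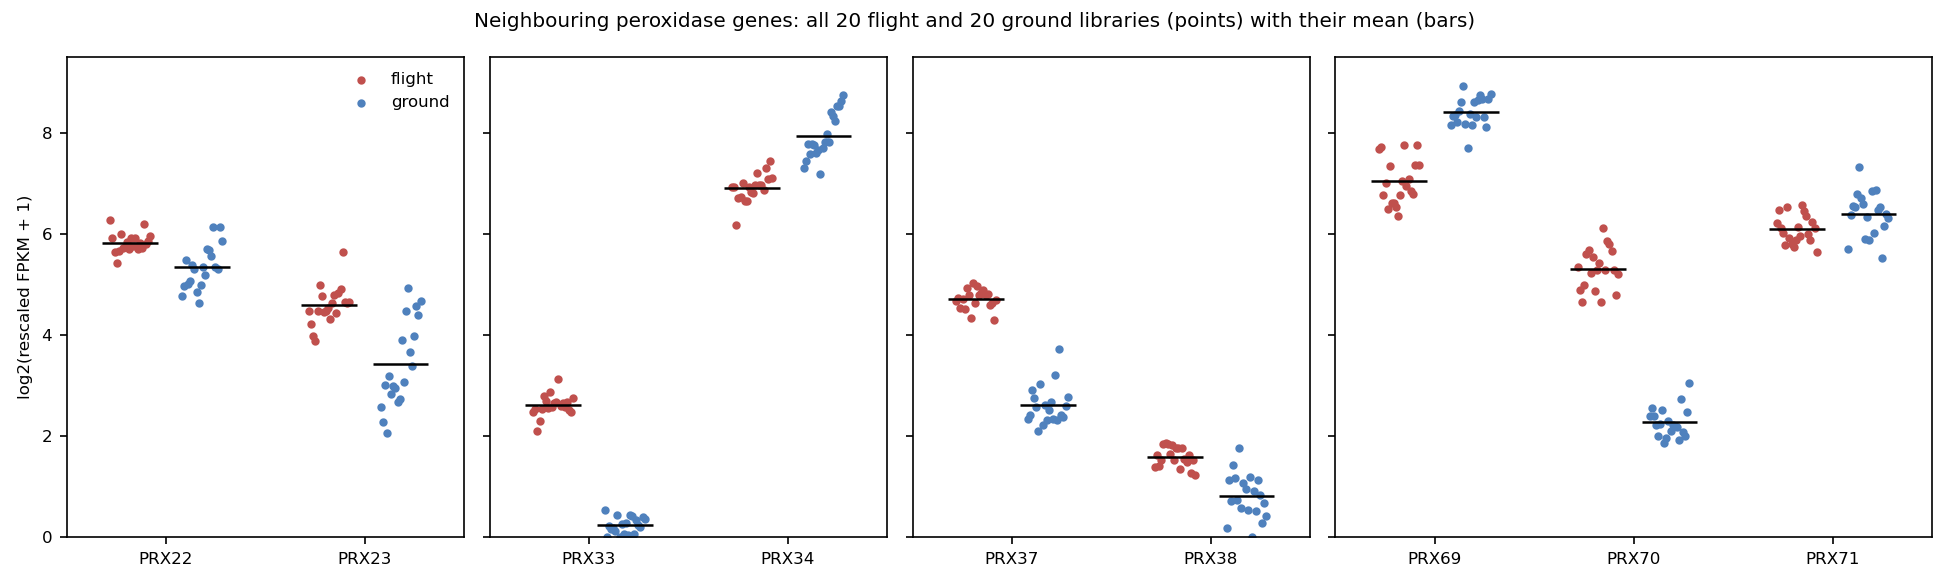
Log2(rescaled FPKM + 1) (vertical axis) of peroxidase genes that lie next to each other, in 20 flight libraries (red, left) and 20 ground libraries (blue, right), with means as bars. PRX33 and PRX70 are higher in flight than on the ground, and their neighbours PRX34 and PRX69 are lower in flight than on the ground on this scale. By mean, PRX34 lies above PRX33, PRX69 above PRX70 and PRX37 above PRX38 in both conditions.

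PRX22 (chr2:16076289-16078781, plus strand, 4 exons) and PRX23 (chr2:16079679-16081671, plus strand, 4 exons) form a pair 897 bases apart with 90.6% identical coding sequence, of whose 50-base windows 1.42% and 1.72% are shared. Both were higher in flight in the mean of the genotypes, and no difference from WT in the size of the rise was called for either. PRX23 in the libraries labelled bzip28 had 21.1, 17.6, 14.7 and 13.7 in flight, against 4.97, 3.89, 7.06 and 3.199 on the ground. In bzip60, PRX23 had 21.1, 30.96, 26.5 and 21.1 in flight, against 8.11, 6.13, 6.99 and 6.72 on the ground. In bzip28bzip60, PRX23 had 21.3, 22.2, 19.01 and 23.9 in flight, against 5.42, 5.701, 13.9 and 7.46 on the ground. In these 3 genotypes every flight library was above every ground library. In ire1aire1b, PRX23 had 26.8, 20.8, 27.4 and 29.1 in flight, against 21.3, 29.3, 11.8 and 9.498 on the ground. In WT, PRX23 had 48.97, 24.2, 23.8 and 24.1 in flight, against 14.7, 22.9, 20.1 and 24.4 on the ground. In both of these genotypes flight and ground overlapped, and 1 WT flight library was far above its partners. The log2 change of PRX23 was 1.65 ± 0.26 in the libraries labelled bzip28, 1.69 ± 0.26 in bzip60 and 1.39 ± 0.26 in bzip28bzip60. It was 0.63 ± 0.26 in ire1aire1b (limma adjusted p = 0.0416) and 0.49 ± 0.26 in WT (limma adjusted p = 0.111). The ire1aire1b call was lost without flight replicate 1, 3 or 4 or ground replicate 3 or 4, with log2 changes of 0.39 to 0.61. The WT value was 0.24 without flight replicate 1. As deposited PRX23 was called higher in all 5 genotypes, with 1.37 in WT and 1.89 in the mean, and within lane 4 it was 1.02 ± 0.30.

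PRX22 averaged 56.7 ± 14.9 in flight, against 32.98 ± 7.39 on the ground in the libraries labelled bzip28, and at 54.4 ± 6.07 and 35.02 ± 5.96 in bzip60. In bzip28bzip60 PRX22 had 55.2 ± 3.83 in flight and 32.4 ± 6.75 on the ground, in ire1aire1b 54.7 ± 3.78 and 54.3 ± 10.3, and in WT 61.2 ± 7.63 and 51.3 ± 14.96 (SD, n = 4 each). The flight means of the 5 genotypes spanned a narrower range than the ground means. Called rises of 0.75 ± 0.18 in the libraries labelled bzip28, 0.63 ± 0.18 in bzip60 and 0.77 ± 0.18 in bzip28bzip60 stood beside 0.025 ± 0.18 in ire1aire1b and 0.29 ± 0.18 in WT, which did not pass the test on the rescaled values (limma adjusted p = 0.916 and 0.161). As deposited these 2 were 0.98 and 1.19 and were called. The WT change was 0.45 and was called on the rescaled values when WT ground replicate 3 was left out. Within lane 4 the change was 0.50 ± 0.24.

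On the ground, the mutants were compared with WT to see which levels differ without flight, and the 4 mutants share the WT libraries. PRX23, PRX34 and PRX62 were lower than in WT in the libraries labelled bzip28, in bzip60 and in bzip28bzip60 on the rescaled values, and no member was called in ire1aire1b. In the libraries labelled bzip28, 0 of the 9 tested members were called higher and 3 lower, where limma called 1.14% and 2.21% of all tested genes, and as deposited also 0 and 3, against 0.0208% and 0.683%. In bzip60, 1 was called higher and 3 lower, where 2.26% and 2.36% of all tested genes were. As deposited the bzip60 ground libraries had 3 members called higher (PRX64, PRX69 and PRX71) and 1 lower (PRX23), where 69.8% and 0.25% of all tested genes were, and the median tested gene lay 0.55 above WT on that scale. In bzip28bzip60, 0 were called higher and 4 lower, where 1.24% and 1.11% of all tested genes were, and as deposited 0 and 1, against 0.782% and 0.109%. In ire1aire1b, limma called 0 members higher and 0 lower, where 0.188% and 0.297% of all tested genes were called, and 2 members had an unadjusted p below 0.05. As deposited limma also called 0 and 0, against 0.0573% and 0.0782%.

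PRX23 showed the largest of these differences. Its log2 difference from WT was -1.92 ± 0.26 in the libraries labelled bzip28 (limma adjusted p = 1.79e-05), -1.42 ± 0.26 in bzip60 (adjusted p = 0.00142) and -1.31 ± 0.26 in bzip28bzip60 (adjusted p = 0.00439). In each of these 3 groups all 4 libraries lay below all 4 WT ground libraries. As deposited the differences were -1.99, -0.82 and -1.08, all called. With the spread of the compared groups alone the bzip28bzip60 call was lost (limma adjusted p = 0.168). In ire1aire1b PRX23 differed by -0.29 ± 0.26, with a 95% interval of -0.83 to 0.25.

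PRX34 was lower than in WT by 1.08 on the log2 scale in the libraries labelled bzip28 (limma adjusted p = 1.39e-05), 0.90 in bzip60 (adjusted p = 0.00027) and 0.93 in bzip28bzip60 (adjusted p = 0.000216). All libraries of these 3 groups lay below all WT ground libraries. As deposited the differences were -1.29, -0.27 and -0.72, and only that of the libraries labelled bzip28 was called. With the spread of the compared groups alone the bzip28bzip60 call was lost (limma adjusted p = 0.104). In ire1aire1b PRX34 differed by -0.40 ± 0.15 (95% interval -0.70 to -0.10, limma adjusted p = 0.272), and its 4 libraries too were all below WT.

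PRX62 differed from WT by -0.90 ± 0.15 in the libraries labelled bzip28, -0.56 ± 0.15 in bzip60 and -0.67 ± 0.15 in bzip28bzip60 (limma adjusted p = 0.000256, 0.0228 and 0.00882). It did not overlap WT in the libraries labelled bzip28 only. As deposited the 3 differences were -1.10, 0.067 and -0.47, so that of bzip60 changed sign and only the first was called. The bzip60 call was also lost without bzip60 ground replicate 2, 3 or 4 or WT ground replicate 3 or 4 (-0.51 to -0.56), and the bzip28bzip60 call without bzip28bzip60 ground replicate 1 (-0.54). With the spread of the compared groups alone the calls of bzip60 and bzip28bzip60 were lost (limma adjusted p = 0.14 and 0.228). In ire1aire1b PRX62 differed by -0.56 ± 0.15 and missed the test (limma adjusted p = 0.0854), but was called at -0.73 without ire1aire1b ground replicate 2 and at -0.67 without WT ground replicate 2.

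Further calls changed with single libraries or settings. PRX71 was higher in bzip60 than in WT by 0.75 (limma adjusted p = 0.0437), with no overlap, and 1.38 as deposited, but the call was lost without any 1 of bzip60 ground replicates 1, 2 and 3 or of the 4 WT ground replicates, with values of 0.56 to 0.85. It was also lost with no filter, with lane as a term and with the spread of the compared groups alone (limma adjusted p = 0.0646, 0.0542 and 0.211). PRX22 was lower in bzip28bzip60 by 0.63 (limma adjusted p = 0.04996), and this call was lost without bzip28bzip60 ground replicate 1 or 2 or WT ground replicate 3 or 4, at -0.47 to -0.61. In the libraries labelled bzip28 PRX22 missed the test at -0.60 (limma adjusted p = 0.0506) and passed at -0.74 without replicate 3 of that group and at -0.71 and -0.72 without WT ground replicate 1 or 2. In bzip60 it missed at -0.51 and passed at -0.63 without WT ground replicate 2. PRX64 missed in bzip60 at 0.57 (limma adjusted p = 0.0917), passed at 0.72 without bzip60 ground replicate 4, and was called at 1.15 as deposited. PRX69 in bzip60 was at 0.07, but was called at 0.71 as deposited. No mutant passed the test on the ground for PRX33 or PRX37, whose log2 differences from WT lay between -0.14 and 0.015 and between -0.06 and 0.36.

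**Figure D4:**
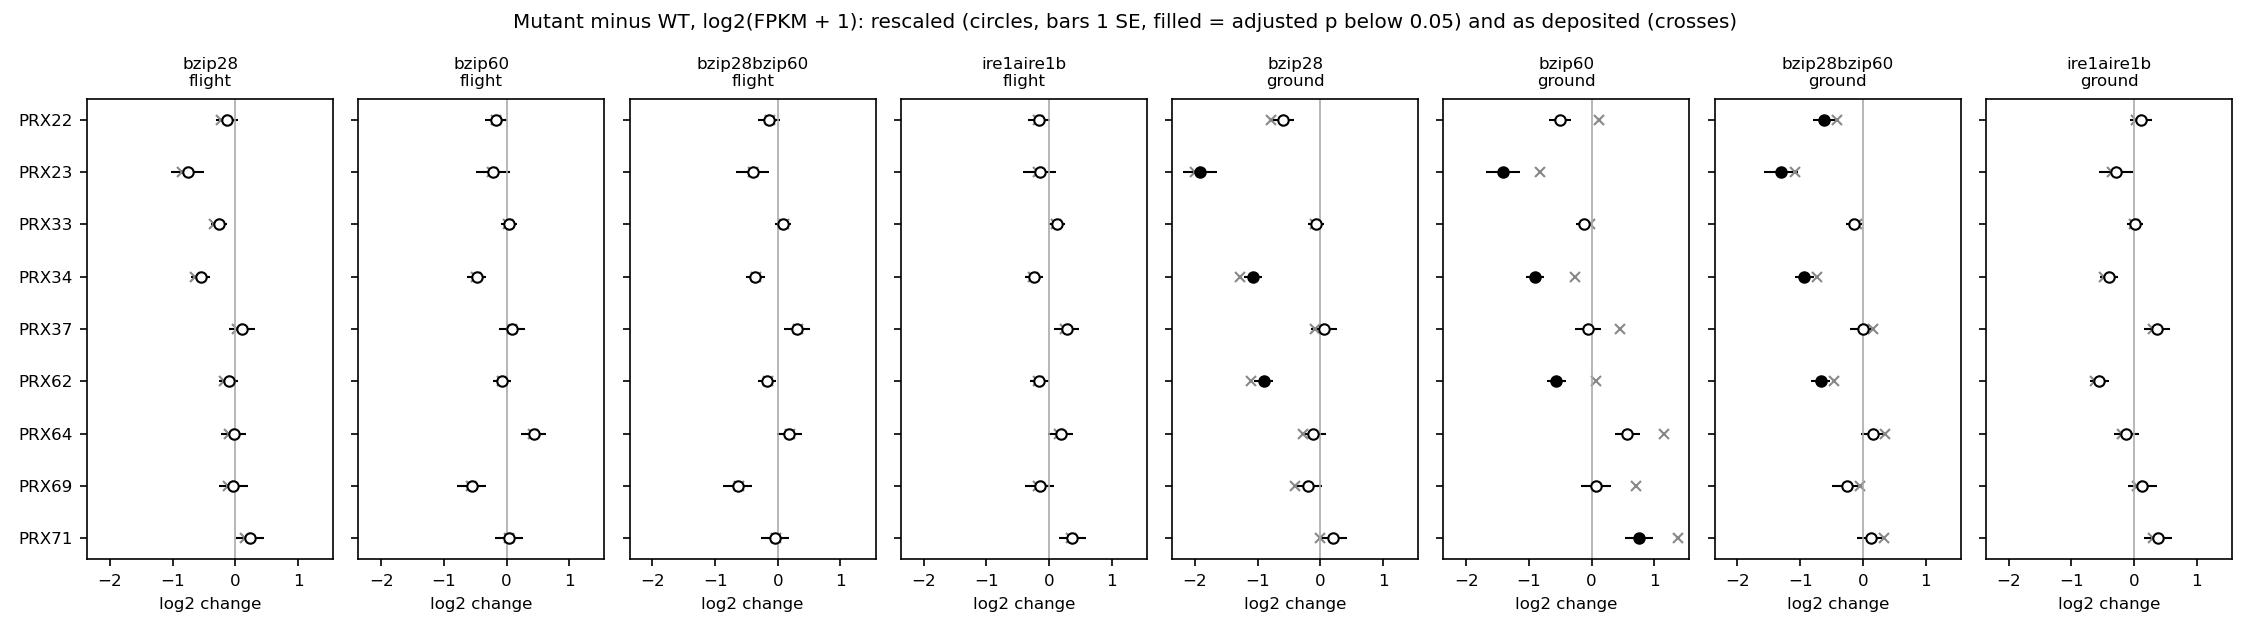
Mutant minus WT on the log2(FPKM + 1) scale (horizontal axis) for the 9 tested peroxidases, with the 4 flight comparisons left of the 4 ground comparisons. Circles are rescaled values with bars of 1 SE, filled where the limma adjusted p is below 0.05, and crosses are values as deposited. Filled circles are seen on the ground only, for 3, 4, 4 and 0 members, and the crosses of bzip60 on the ground lie to the right of the circles, past 0 for PRX22, PRX37 and PRX62.

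In flight, limma called no member in any mutant. In the libraries labelled bzip28, 0 members were called and 2 had an unadjusted p below 0.05, where 0.0104% of all tested genes were called higher and 0.172% lower. In bzip60 0 were called and 3 had an unadjusted p below 0.05, where 0.0365% and 0.214% of all tested genes were called. In bzip28bzip60 0 were called and 2 had an unadjusted p below 0.05, where 0.0261% and 0.292% were called. In ire1aire1b 0 were called and 0 had an unadjusted p below 0.05, where 0.0834% and 0.151% were called. PRX34 was lower than in WT by 0.55 in the libraries labelled bzip28 (95% interval of the log2 difference -0.85 to -0.25, limma adjusted p = 0.218), by 0.48 in bzip60 (-0.78 to -0.18, adjusted p = 0.381) and by 0.36 in bzip28bzip60 (-0.65 to -0.058, adjusted p = 0.789). All 4 libraries of each of these groups lay below all WT flight libraries, but none of these differences was called. How many of all tested genes separate in this way, in flight or on the ground, was not counted, so a lack of overlap is a description. PRX23 in the libraries labelled bzip28 differed by -0.76 ± 0.26 (-1.30 to -0.22), also without overlap. PRX37 in ire1aire1b differed by 0.28 ± 0.21 (-0.14 to 0.70), with all 4 libraries above WT. PRX62, which was lower on the ground in 3 mutants on the rescaled values, differed in flight by -0.10 ± 0.15 (-0.41 to 0.20) in the libraries labelled bzip28, -0.071 ± 0.15 (-0.37 to 0.23) in bzip60 and -0.17 ± 0.15 (-0.48 to 0.13) in bzip28bzip60.

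Whether a flight response differed from that of WT was tested by the interaction of genotype and condition. Limma called 0 members for any mutant. For the libraries labelled bzip28, 0.0313% of all tested genes were called higher and 0.0156% lower, and 3 members had an unadjusted p below 0.05. For bzip60 0.0208% and 0.0261% were called, and 4 members had an unadjusted p below 0.05. For bzip28bzip60 0.0365% and 0.0469% were called, with 3 members at an unadjusted p below 0.05, and for ire1aire1b 0% and 0.00521%, with 0 members. The widest differences were those of PRX23, whose flight response exceeded that of WT by 1.16 ± 0.37 in the libraries labelled bzip28 (95% interval 0.40 to 1.92, limma adjusted p = 0.37), 1.198 ± 0.37 in bzip60 (0.44 to 1.96, adjusted p = 0.261) and 0.90 ± 0.37 in bzip28bzip60 (0.14 to 1.67, adjusted p = 0.588). The difference between genotypes in the response of PRX23 was thus not called, although its response passed the test in 4 mutants and missed it in WT. The response of PRX62 differed from that of WT by 0.80 ± 0.21 in the libraries labelled bzip28 (limma adjusted p = 0.18). PRX33, PRX37 and PRX64 gave differences from WT between -0.19 and 0.31, with the widest interval from -0.28 to 0.91 for PRX37 in bzip28bzip60. As deposited, PRX69 and PRX71 were called in bzip60, at -1.27 and -1.35 (limma adjusted p = 0.0424 and 0.0439). On that scale 0.0469% of all tested genes were called higher and 22.2% lower, with a median of -0.56, and the rescaled values were -0.62 and -0.71 (limma adjusted p = 0.662 and 0.544).

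Among the other 63 class III peroxidases, 44 were tested, and 21 were called higher and 13 lower in flight in the mean, with a median log2 change of 0.25 beside 0.10 over all tested genes. Called over all tested genes were 46.8% higher and 33.3% lower, so these shares are close to the background. The 5 with the largest rise were PRX70, PRX9, PRX63, PRX17 and PRX31. PRX9, known from anthers, averaged 6.85 ± 1.196 in flight, against 0.982 ± 0.618 on the ground, and changed by 2.04 ± 0.11 (SD over n = 20 libraries, SE for the change). PRX9 passed the filter only through its flight libraries, so it had to differ. PRX63 was at 5.81 ± 1.05 and 1.66 ± 0.655, a change of 1.38 ± 0.092. PRX17, known for lignified tissues, averaged 12.7 ± 1.27 in flight, against 5.14 ± 1.34 on the ground, a change of 1.19 ± 0.081, and PRX31 at 68.7 ± 8.49 and 30.3 ± 5.802, a change of 1.17 ± 0.056. All 5 rose on both scales. The 5 with the largest fall were PRX28 (-2.17 ± 0.20), PRX10 (-1.38 ± 0.17), PRX49 (-1.05 ± 0.10), PRX15 (-1.01 ± 0.11) and PRX27 (-0.99 ± 0.13), and they ranged from PRX28 at 0.959 ± 0.408 in flight and 9.33 ± 6.17 on the ground to PRX49 at 21.7 ± 4.602 and 49.5 ± 22.8. As deposited they kept their direction at -1.65, -0.64, -0.29, -0.26 and -0.30, and PRX15 was no longer called. On the ground, 2 of these 44 genes were called higher and 8 lower than in WT in the libraries labelled bzip28, 2 and 5 in bzip60, 0 and 3 in bzip28bzip60, and by limma 0 and 0 in ire1aire1b, where 6 had an unadjusted p below 0.05. Over all tested genes the shares were 1.14% and 2.21% in the libraries labelled bzip28 and 2.26% and 2.36% in bzip60. They were 1.24% and 1.11% in bzip28bzip60 and 0.188% and 0.297% in ire1aire1b.

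**Figure D5:**
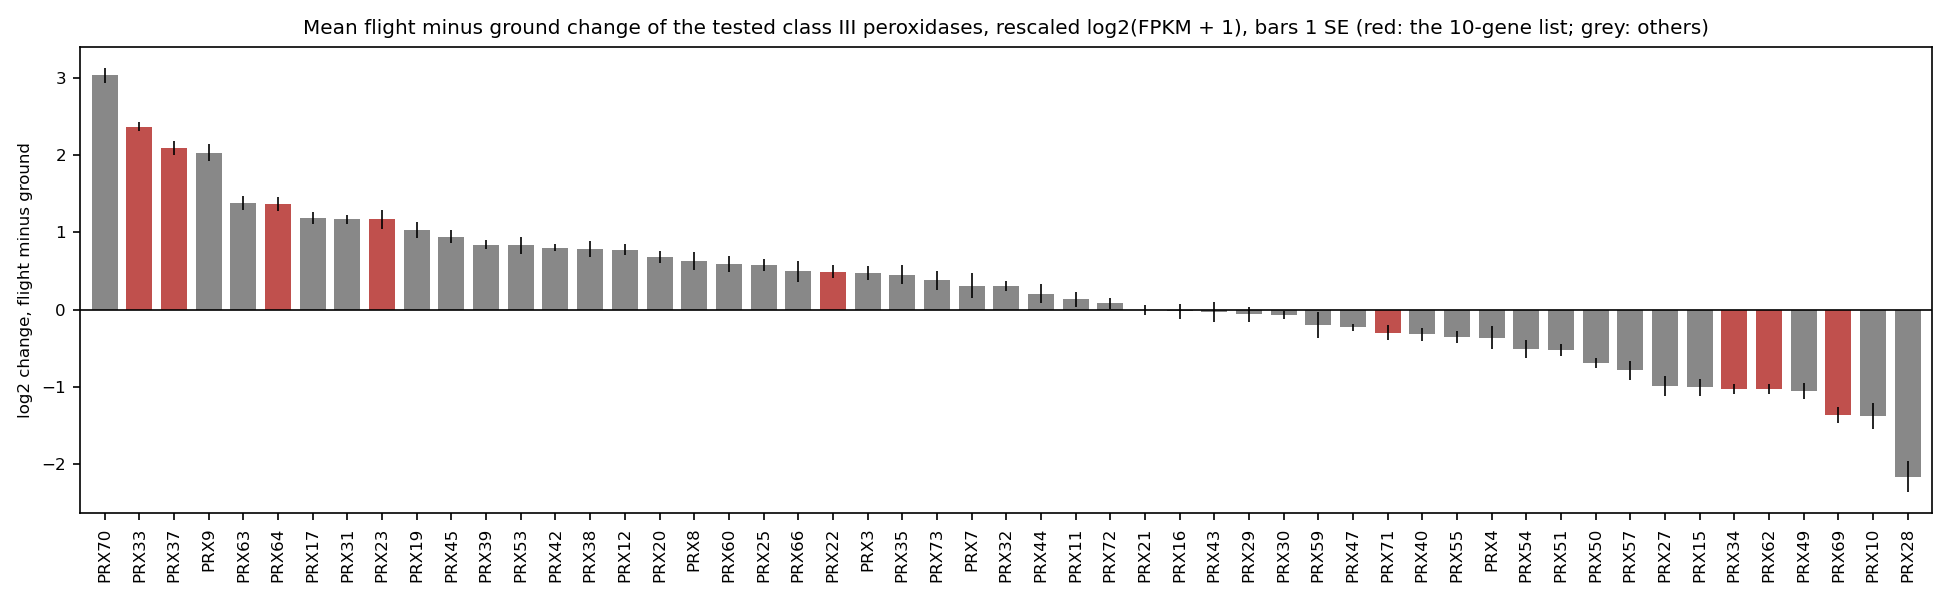
Mean flight minus ground change on the log2(rescaled FPKM + 1) scale (vertical axis) of the 53 tested class III peroxidases in order of size, with bars of 1 SE, the members described here in red and the rest in grey. PRX33 and PRX37 stand next to PRX70 at the upper end and PRX69, PRX62 and PRX34 near the lower end, an end that lies closer to 0 as deposited.

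Genes that work beside the peroxidases were counted from lists for the mean flight change, in which 46.8% of all tested genes were called higher and 33.3% lower. In these lists RBOHC, RBOHE, LAC12, LRX1 and F5H1 passed the filter on low values only through flight, and LAC9 only through ground. These genes had to differ, so the counts are descriptions. NADPH oxidases supply the superoxide from which hydrogen peroxide forms, and of 8 tested out of 10, 2 were called higher and 3 lower, with a median log2 change of -0.0079. RBOHA fell by 0.78, RBOHB was at -0.42 ± 0.059 but 0.18 as deposited, RBOHI was at -0.46 ± 0.064 but -0.018 as deposited, and RBOHC, which serves root hair growth, rose by 0.72 ± 0.059. RBOHF, which supplies the Casparian strip, did not pass the test, at -0.038 ± 0.069. Laccases polymerise lignin monomers with oxygen in place of peroxide, and of 11 tested out of 17, 6 were called higher and 2 lower. LAC7 fell by 2.17, LAC3, an enzyme of the Casparian strip, rose by 1.00 ± 0.081, LAC8 by 0.93 ± 0.058 and LAC12 by 0.64 ± 0.074. Extensins and their leucine-rich chimeras are wall proteins that peroxidases cross-link, and all 10 were tested and called higher, with a median of 0.99. LRX2 rose by 2.22 ± 0.074, LRX5 by 1.64 ± 0.072, EXT3 by 1.54 ± 0.13 and EXT12 by 1.27 ± 0.11. Called higher in WT were 8 of the 10, in the libraries labelled bzip28 9, while bzip60 had 8, bzip28bzip60 5 and ire1aire1b 7. Over all tested genes 35.5%, 35.1%, 33.2%, 32.6% and 34.2% were called higher, in the same order.

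The 14 genes of monolignol synthesis, which make the lignin precursors, were all tested, with a median log2 change of 0.27. In the mean 11 were called higher in flight and 2 lower, where 46.8% and 33.3% of all tested genes were. F5H1 rose by 0.63 ± 0.10, PAL2 by 0.56 ± 0.052, CCOAOMT1 by 0.55 ± 0.045 and 4CL2 by 0.46 ± 0.07. The 2 that were lower, named after their values were seen, were CCR1 (-0.17 ± 0.028) and CAD5 (-0.18 ± 0.048), and both were higher as deposited (0.61 and 0.60). On the ground, on the rescaled values, the libraries labelled bzip28 had 8 of the 14 called lower than in WT, while bzip60 had 4, bzip28bzip60 had 2 and ire1aire1b had 1. Called lower over all tested genes in these comparisons were 2.21%, 2.36%, 1.11% and 0.297%, in the same order. UPB1, a root transcription factor that represses peroxidase genes, averaged 12.5 ± 3.09 in flight, against 30.7 ± 9.07 on the ground, and fell by 1.203, and by 0.46 as deposited. All 4 lists of shoot and root markers held detected genes, the check of the whole-seedling label. The root meristem list of 5 genes summed to 30.6 to 42.2 in flight and 19.02 to 27.8 on the ground. Only 2 of its genes were tested, SHR (0.71 ± 0.048) and SCR (0.46 ± 0.046), and both were called higher. The list of shoot epidermis and the stomatal line summed to 221 to 376 and 70.02 to 158, with 3 of 6 tested genes called higher and 3 lower, among them PDF1 (3.65 ± 0.11), FDH (0.94 ± 0.069), TMM (-1.89 ± 0.12) and FAMA (-0.74 ± 0.084, not called as deposited). These shifts in other cell types stand beside the members' changes, and their part in them was not tested.

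Levels on the log2 scale were correlated over the 40 libraries as a description. PRX33, PRX37 and PRX64 had Pearson r of 0.968, 0.888 and 0.872 with each other, and PRX34, PRX62 and PRX69 of 0.916, 0.847 and 0.8397. The libraries share the flight and ground split, so these values restate it. After the group means were taken off, the coefficients were 0.365, -0.0365 and 0.229 among the first 3 and 0.535, 0.678 and 0.314 among the second 3, while PRX34 and PRX71 had 0.608. PRX22 and PRX23 had 0.801 before and 0.355 after.

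The tested genes whose levels were most like each member over the 40 libraries are given as a description. PRX33 was most like AT4G22513 (r = 0.987, 165 rescaled FPKM in flight against 0.369 on the ground) and AT2G14900 (r = 0.986, 233 rescaled FPKM in flight against 22.8 on the ground). PRX37 was most like AT5G24580 (r = 0.965) and AT3G49970 (r = 0.964). For PRX64 these were AT2G39430 (r = 0.977, 32.5 rescaled FPKM in flight against 14.1 on the ground) and AT1G30750 (r = 0.954). Both of these genes, like PRX64, had higher means in flight. PRX34 was most like KOR2 (r = 0.938, 3.72 rescaled FPKM in flight against 8.37 on the ground), a cellulase of the wall, and ANAC087 (r = 0.936). PRX62 was most like XTH11 (r = 0.945, 1.15 rescaled FPKM in flight against 6.23 on the ground), a xyloglucan-modifying enzyme, and AT4G20860 (r = 0.943). PRX69 was most like HIR2 (r = 0.965, 83.6 rescaled FPKM in flight against 217 on the ground), a membrane protein of defence, and AT2G44380 (r = 0.958). These partners, like the members, had lower means in flight on the rescaled values. PRX23 was most like PDIL2-2 (r = 0.888, 7.64 rescaled FPKM in flight against 4.56 on the ground), a disulfide isomerase of the endoplasmic reticulum, and TLL1 (r = 0.878). PRX22 was most like AT5G38940 (r = 0.838) and CCoAOMT1 (r = 0.825), the monolignol enzyme named above. PRX71 had the loosest partners, RIN4 (r = 0.756), a regulator of immune receptors, and AT1G65845 (r = 0.746).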

How the data were processed

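RNA was sequenced from stranded messenger RNA libraries, per the labels' protocols. The authors deposited 1 table of FPKM for 34133 loci in 40 libraries, and the submitters' processing notes name FastQC 0.11.5, cutadapt 1.8.1, Bowtie2 2.2.4, TopHat2 2.0.14, Cufflinks 1.3.0 and TAIR10. Columns were assigned by sample title; 4 of 44 labelled samples, used by the submitters for first quality controls only, have no column. No step of whole reads was found in the FPKM, so depth per library is unknown and precision rests on the spread between libraries. Of 13827 genes with a mean of at least 5 FPKM, 263 are listed at 0 in at least 1 library.

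FPKM were rescaled by median ratio over the 14104 genes above 1 FPKM in every library, and 1 was added before log2. The 19186 genes with a mean deposited FPKM of at least 1 were fitted with limma 3.58.1 in R 4.3.3 (a mean per group, eBayes with trend, 30 residual degrees of freedom, two-sided), with Benjamini-Hochberg adjustment within each of 18 comparisons. Rescaling by median ratio takes the typical gene as equal between libraries. The scripts were tested on simulated data. Alternatives were the FPKM as deposited, a pseudocount of 0.1, no filter, the replicate number as a block, the lane as a term, the spread of the compared groups alone, and each library left out.

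Named genes were all 10 members; up to 4 called genes per list; the 5 other family members with the largest rise and the 5 with the largest fall among those called with at least 5 rescaled FPKM; the 2 genes most correlated with each member; the disrupted genes; and PRX32, PRX38 and PRX70. The value of 1 gene that this rule names is not reported here. The members and lists were chosen with earlier results of these data known. Gene models and sequences came from RefSeq TAIR10.1, used with the table through locus identifiers only, and all 73 family identifiers matched. Figures were drawn with matplotlib 3.10.9 in Python 3.11.15.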

Additional observations from a re-analysis of the deposited data

Results flagged for a closer look

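Of the 100 sets of 4 libraries examined (10 members in 10 groups), 6 held a library whose gap to the nearest partner was an unusually large part of the group's range, and chance gives about 1 in 20. PRX23 in WT flight had 1 library at 49.0 rescaled FPKM beside 23.8 to 24.2, a gap of 0.984 of the range. Without it the WT flight change of PRX23 was 0.24 on the log2 scale. PRX62 (gap 0.915), PRX69 (0.882) and PRX71 (0.867) were all high in bzip60 flight replicate 2, which was the highest library of its group for 8 of the 10 members. Without it the bzip60 flight changes were -1.03 for PRX62, -1.96 for PRX69 and -1.02 for PRX71, each further from 0. PRX33 (gap 0.881) and PRX62 (0.871) were high in ire1aire1b flight replicate 1, the highest of its group for 7 of the 10 members. Without it their ire1aire1b flight changes were 2.28 and -1.15. No call of these 6 changes was different without the library.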

How the results depend on the processing

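Every flight against ground count of called members, higher and lower together, stayed within 1.5 times its value under all alternatives. By direction it did not as deposited, where 0 or 1 members were called lower in 4 of the 5 genotypes, 3 in bzip60. As deposited, the log2 change reversed with a call on either scale for PRX71 in WT (0.78), the libraries labelled bzip28 (0.94), ire1aire1b (0.83) and the mean (0.48), for PRX34 (0.20), PRX62 (0.35) and PRX69 (0.072) in the libraries labelled bzip28, and for PRX62 in bzip60 against WT on the ground (0.067). Uncalled changes of opposite sign on that scale include PRX71 in bzip28bzip60 in flight (0.41) and PRX22 (0.11) and PRX37 (0.45) in bzip60 on the ground. On that scale the median tested gene also lay 0.33 to 0.97 higher in flight. On the ground, the called members in bzip60 (1 higher and 3 lower) were 3 higher and 1 lower as deposited, 2 in all with the spread of the compared groups alone and 2 to 4 with a library left out. In bzip28bzip60 (4) they were 1 as deposited, 0 with the spread of the compared groups alone and 2 to 4 with a library left out. In ire1aire1b (0) there was 1, PRX62, with lane as a term, and 0 to 1 with a library left out. The flight response of bzip60 against WT (0) had 2 as deposited. For these counts the cause was not tested. Of 162 single log2 changes, lane as a term altered 4 calls, no filter 3 and a pseudocount of 0.1 altered 1. Under no filter and under the replicate block PRX22 in bzip28bzip60 on the ground lost its call (limma adjusted p = 0.0722 and 0.0549).

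The labels do not say whether the replicate numbers pair the libraries, and the main fit used no pairs. Of 20 pairs of the same genotype and number, 3 had deviations correlated above 0.1 (-0.11 to 0.17), and of 60 with another number 6 had. Between genotypes it was 25 of 160 pairs with the same number and 37 of 480 with another. Codes in the sample titles differ for some same-numbered flight and ground libraries, so this check cannot decide on pairing. The replicate block gave the same counts of called members within 1.5 times and changed no call of a member other than that of PRX22 above. Depth is unknown, so the limit it sets on PRX33 on the ground and on PRX52 cannot be given.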
